A study of Mus musculus with 287 samples.

Results

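The unspliced side of single-cell RNA was compared between the 2 types of clone that the labels call SN and N, in fluorescent cells drawn from mouse cerebral organoids. Members were chosen from the intron count table: a cell was kept if it had a clone type label and if 1000 genes or more had an exon count in it, and intron counts were summed over each clone with at least 2 kept cells. This left 62 of 68 labelled clones, with 83.97% of the cells of the series. Of these clones, 42 were SN clones, with 52.7% of the cells used, and 20 were N clones, with 47.3%. Both types came from organoids of genotype MADM-11GT/TG;Emx1-CreER+/-, in which a tamoxifen-inducible Cre expressed from the Emx1 locus, a gene of the dorsal forebrain, can leave daughter cells of a dividing progenitor green or red. Recombination was induced with 60 nM 4-hydroxytamoxifen on day 13, and labelled cells were drawn up one by one with a glass pipette on day 20, so the agent, the dose and both days were shared by SN and N clones. The labels do not say what SN and N stand for, and they name no organoid, culture or animal. P-values therefore measure the spread between clones only, and clones that share an organoid would make them too small.

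Introns are removed while a gene is being transcribed or soon after, so a read inside an intron comes mostly from RNA that is still nascent or held in the nucleus, and a read inside an exon mostly from mature RNA. In neurons the genes with the most intron sequence encode adhesion molecules, receptors and synaptic proteins, which are transcribed over very long introns. A gene whose intron level and exon level differ unequally between cells is a candidate for a difference in transcription, splicing or RNA stability, which the counts alone do not separate.

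The libraries were made by Smart-seq3, a full-length method for single cells, on 3 plates, which held 15, 14 and 13 SN clones and 5, 7 and 8 N clones. The lowest, median and highest sums of intron counts were 26610, 2132450 and 8480065 over SN clones, against 274824, 6873720 and 18861596 over N clones. A median of 3 kept cells made up an SN clone, against 5 in an N clone, so depth and number of cells differ between the types. Summed exon levels of 20 radial glia markers had medians of 4366 CPM in SN clones and 3528 CPM in N clones, and those of 12 markers of immature excitatory neurons 10840 and 11983 CPM. The 4 pluripotency markers had summed intron levels from 0 to 40.01 CPM in SN clones and from 0 to 247.3 CPM in N clones, with medians of 0 and 0.273 CPM. CPM here are relative to the scaled intron total, or exon total, of a clone.

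Introns held 30.4% of all counts in these cells, and 26262 genes had an intron count. Counting was thinner than in exons: 37.5% of the intron values above 0 were between 1 and 3 counts, against 20.02% of the exon values. In 45.8% of the pairs of a gene and a cell with an intron count, the same cell also had an exon count of that gene. The intron table was less concentrated, with 7.76% of counts in its 10 leading genes, against 24.7% of exon counts in theirs. These 10 were Cdk8, Gm20388, Copg2, Gm49450, Blcap, Tenm2, Auts2, Ptprd, Dcc and Celf2. Cdk8, a kinase of the Mediator complex, led with 1.54% of intron counts. Its introns were counted in every kept cell, and its exons in 46.96% of them. The last 5 are long neuronal genes: a teneurin adhesion molecule, a transcriptional regulator linked to neurodevelopment, a receptor phosphatase, a netrin receptor and an RNA-binding splicing factor.

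Part of the intron table repeated the exon table. Counts of Wdr38 introns and of Rpl35 exons, a ribosomal protein gene that overlaps it, lay within 1% of each other in 98.8% of cells with either. Likewise Blcap introns matched exons of the imprinted neuronal gene Nnat within 1% in 90.7% of cells, and Gm49450 introns matched exons of the tubulin gene Tuba1a in 55.5%. The match of a pair was measured as the smaller of the 2 counts summed over cells, in percent of the larger summed over cells. At 80% or more, 293 genes with at least 1000 intron counts matched an overlapping gene. The partner lay on the opposite strand for 200 of them and on the same strand for 93. They held 6.23% of intron counts, and 84.3% of them were among the 11050 genes tested (2.24% of these). More widely, 6688 tested genes (60.5%) overlapped some other gene, and all such genes held 76.5% of intron counts. Gm20388, second in the table, overlaps many genes. The overlaps were read from an annotation of an older genome build than the one the counts were made on, by gene ID.

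**Figure D1:**
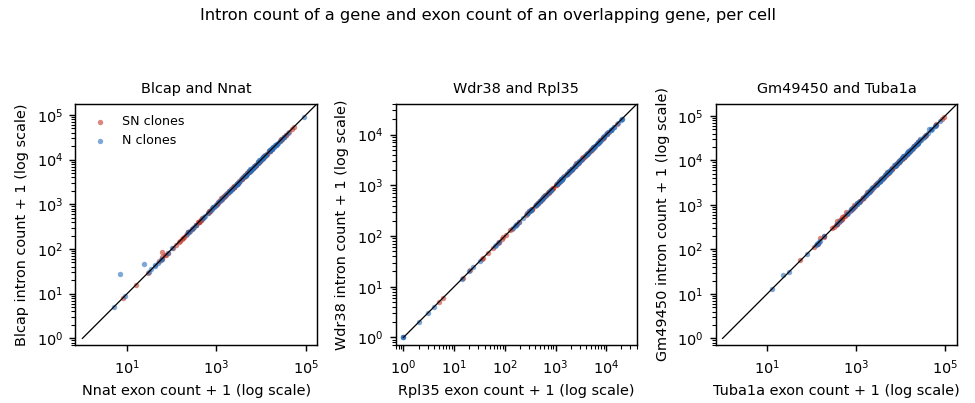
Intron count of a gene (vertical, log scale, count + 1) against the exon count of an overlapping gene (horizontal, log scale, count + 1) in each kept cell, for 3 pairs, with SN cells in red and N cells in blue. Points lie on or near the line of equal counts over the whole range, with the widest scatter at low counts of Blcap.

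Intron levels of no gene differed between SN and N clones past the threshold. Of 11050 genes tested, 0 had an adjusted p under 0.05 in edgeR's quasi-likelihood test with plate as a term (0.0%), and the smallest adjusted p was 0.0812. DESeq2's Wald test called 61 genes, 28 higher and 33 lower in SN clones, and limma-voom 24, all lower. With limma-voom the values of all genes lay lower too, with a median log2 difference of -0.52 and 22.7% of genes above 0. Over genes that overlap no other gene edgeR called 9, all lower, with Gk5, Trappc1 and Gabarapl2 among them. Without adjustment, 1.55% of genes were higher in SN clones at p under 0.05 and 4.78% were lower, beside a median log2 difference of all genes of -0.10. That imbalance changed with the scaling and with the filter and counts used. With DESeq2 size factors the same shares were 4.06% and 2.94% (58.01% of these genes higher, against 24.5% with TMM scaling) and the median moved to 0.17. With clone sums thinned to 500000 counts they were 1.90% and 1.96% of 6484 genes. With a filter of 10 counts in enough clones, and no thinning, they were 2.61% and 2.40% of 7195 genes. The parts of depth and of the set of genes in this were not tested. Genes named below are therefore those of smallest p, given with their values, and not genes shown to differ. For each gene the levels are the lowest, the median and the highest clone of a type, and the log2 difference is SN minus N with its standard error after ±.

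The 6 genes of smallest p on the lower side all had an adjusted p of 0.0812 in edgeR. Gk5, a glycerol kinase family member, had intron levels of 0, 1.75 and 130.4 CPM in SN clones and 0, 36.1 and 385 CPM in N clones. Only 2 of 42 SN clones lay above the N median, although the ranges overlapped. The log2 difference was -3.14 ± 0.71, and within plates 1, 2 and 3 it was -4.15, -3.08 and -2.07. Trappc1, which encodes a subunit of a vesicle tethering complex, had 0, 1.04 and 7.30 CPM in SN clones and 0, 4.54 and 84.7 CPM in N clones, so that no SN clone exceeded 7.30 CPM while the second highest N clone reached 62.6 CPM. Its log2 difference was -3.11 ± 0.65, and on plate 1, the only plate on which it passed the filter alone, -1.95. Gabarapl2, an autophagy gene of the ATG8 family, had 0, 0.242 and 73.99 CPM in SN clones and 0, 13.4 and 391 CPM in N clones, with intron counts in 24 of 42 SN clones and 19 of 20 N clones. Its log2 difference was -3.66 ± 0.86. These 3 genes overlap no other annotated gene. In exons the log2 difference was -1.28 ± 1.05 for Gk5, 0.51 ± 0.42 for Trappc1 and -0.10 ± 0.29 for Gabarapl2.

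The others of the 6 were seen in fewer cells. Fbxo22, a substrate receptor of a ubiquitin ligase, had 0, 0 and 37.1 CPM in SN clones and 0, 5.26 and 221.3 CPM in N clones and a log2 difference of -4.04 ± 0.95, with intron counts in 53 cells. Micall1, which encodes a protein of endosomal recycling, had 0, 0 and 59.9 CPM in SN clones and 0, 2.25 and 118.7 CPM in N clones and a difference of -4.14 ± 0.97 from 40 cells, with 0.40 on plate 3 alone. Mocs1, an enzyme gene of molybdenum cofactor synthesis, had 0, 0 and 30.7 CPM in SN clones and 0, 0.744 and 141.4 CPM in N clones and a difference of -4.24 ± 1.00, also from 40 cells. In each of the 3 the SN median was 0. Their exon differences were -1.61 ± 0.62 for Fbxo22, -0.024 ± 0.63 for Micall1 and 0.70 ± 1.12 for Mocs1. Intron counts were present in 17 of 42 SN clones and 17 of 20 N clones for Fbxo22, in 14 and 16 for Micall1, and in 11 and 14 for Mocs1. N clones hold more cells and more counts, and the part of this in the differences of the 6 genes was not tested. With the first 2 cells of each clone, these 3 genes and Trappc1 failed the filter. Gk5 and Gabarapl2 passed it, and gave log2 differences of -2.97 and -4.36. That setting does not equalise counts: over all cells used, the median of intron counts per cell was 422285 in SN clones and 699016 in N clones. None of the 6 genes passed the filter with clone sums thinned to 500000 counts.

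The 6 genes of smallest p on the higher side had adjusted p values of 0.282 or more in edgeR. Ube2u, a ubiquitin-conjugating enzyme gene, had intron levels of 0, 4.20 and 450.1 CPM in SN clones and 0, 2.35 and 44.5 CPM in N clones, with 32 of 42 SN clones above the N median but 4 above the highest N clone. Its log2 difference was 2.27 ± 0.70, and by plate 2.29, 2.36 and 2.20. The second highest SN clone of Ube2u was at 420.2 CPM. The SN mean of Ube2u was 31.1 CPM with its highest clone and 20.8 CPM without it. Smoc1, a secreted calcium-binding matrix protein gene, had 0, 40.9 and 3301 CPM in SN clones and 0, 27.7 and 403 CPM in N clones and a difference of 2.19 ± 0.71. The SN mean of Smoc1 was 229.4 CPM with its highest clone and 154.5 CPM without it. The exon difference of Smoc1 was 1.01 ± 0.87. Cyp2c52-ps, a cytochrome P450 pseudogene, had 0, 1.005 and 129.2 CPM in SN clones and 0, 0.658 and 18.2 CPM in N clones, with 9 SN clones above the highest N clone and a difference of 3.08 ± 0.97.

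In the remaining 3, too, a few SN clones stood far above the others. F2, the prothrombin gene, had 0, 0 and 2042 CPM in SN clones and 0, 0 and 18.2 CPM in N clones and a difference of 4.58 ± 1.35. Its single highest clone carried the SN mean, which was 76.5 CPM with that clone and 28.5 CPM without. Rilpl2, a partner of Rab proteins, had 0, 8.38 and 1608 CPM in SN clones and 2.96, 8.81 and 67.8 CPM in N clones, so the SN median was below the N median while the fitted difference was 2.502 ± 0.78. Pttg1ip, which encodes a binding partner of securin, had 0, 1.44 and 743 CPM in SN clones and 0, 0.477 and 33.8 CPM in N clones and a difference of 3.11 ± 1.03. The exon differences of Rilpl2 and Pttg1ip had the opposite sign, at -0.62 ± 0.82 and -0.42 ± 0.66. F2 did not enter the exon test.

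**Figure D2:**
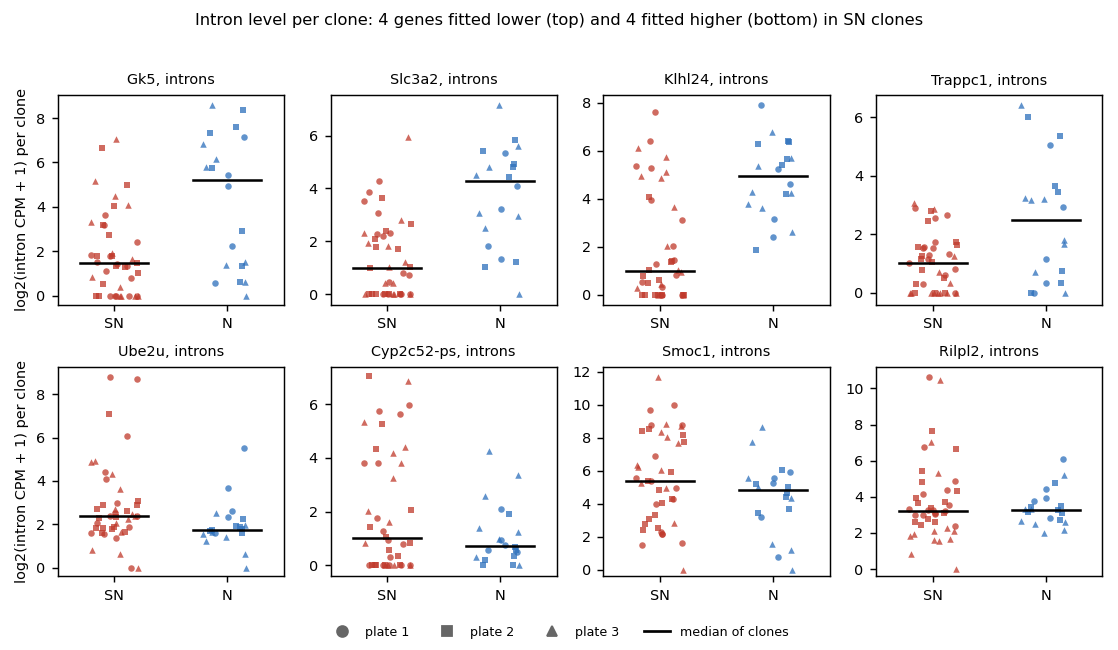
Intron level per clone as log2(CPM + 1) (vertical) in SN clones (left, n = 42) and N clones (right, n = 20) for 8 genes; the shape gives the plate and the black line the median of clones. In Gk5, Slc3a2 and Klhl24 the N median lies far above the SN median, whereas in Rilpl2 the medians are alike and a few SN clones lie above all N clones.

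The exon sums of the same clones gave 0 of 11914 genes past the threshold (0.0%), with a smallest adjusted p of 0.121 in edgeR, while DESeq2's Wald test called 2 genes and limma-voom 1.45%. At unadjusted p under 0.05, 0.327% of genes were higher in SN clones and 1.74% lower, beside a median of -0.11. Introns were the noisier measure: over the 8111 genes tested in both tables the median standard error was 0.74 for introns and 0.65 for exons. The filters left 2939 genes in the intron test alone and 3803 in the exon test alone.

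Whether a gene's intron difference departs from its exon difference was tested within clones, with the intron and exon sums of a clone as a pair. Of 8111 genes, 0 passed the threshold (0.0%), and the smallest adjusted p was 0.392 in edgeR. Without adjustment 1.34% of genes had a higher intron to exon ratio in SN clones and 2.27% a lower one, beside a median of -0.12. Limma on the log2 difference within each clone also called 0 genes. The median standard error of a paired difference was 1.07 on the log2 scale, against 0.76 for introns and 0.71 for exons over all genes tested, and a gene that missed the threshold is not shown to be alike in SN and N clones. The paired value is not the arithmetic difference of the 2 single fits, and for genes with many zeros it can lie far from that difference: Mki67, a proliferation marker, had a log2 difference of 2.61 in introns, -0.31 in exons and 0.0063 in the paired fit.

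Ccnd2, the cyclin D2 gene of progenitors in G1 phase, had the smallest p on the lower side, and its introns and exons pointed opposite ways. Its intron levels were 0, 5.37 and 158.02 CPM in SN clones and 0, 36.04 and 388 CPM in N clones. Its exon levels were 96.6, 634 and 4417 CPM in SN clones and 47.5, 380.2 and 1448 CPM in N clones, so the SN median was the lower one in introns and the higher one in exons. The intron difference was -1.25 ± 0.70, the exon difference 0.75 ± 0.31 and the paired difference -2.91 ± 0.73 (unadjusted p = 0.000162, edgeR). Intron counts of Ccnd2 were present in 33 of 42 SN clones and 18 of 20 N clones, and exon counts in all 62. Limma on the per-clone log2 difference gave -2.56 ± 0.66. By plate the intron difference was -2.05, -1.59 and -0.044.

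The other 5 genes on that side are given with their exon values. Gabarapl2 had exon levels of 6.48, 101.2 and 650.2 CPM in SN clones and 7.31, 115.03 and 364 CPM in N clones, an exon difference of -0.10 ± 0.29 and a paired difference of -3.34 ± 0.90. Slc3a2, the heavy chain of amino acid transporters, had intron levels of 0, 0.992 and 60.2 CPM in SN clones and 0, 18.5 and 142.9 CPM in N clones, and 41 of 42 SN clones lay below the N median. By plate its intron difference was -1.68, -3.50 and -2.24. Its intron difference was -2.62 ± 0.68, its exon difference -0.013 ± 0.50 and the paired difference -2.94 ± 0.86. Klhl24, an adaptor of a ubiquitin ligase, had intron levels of 0, 0.998 and 196.4 CPM in SN clones and 2.699, 29.9 and 239.2 CPM in N clones, and all 20 N clones lay above the SN median. By plate its intron difference was -1.29, -5.01 and -0.81. Its intron difference was -2.68 ± 0.85, its exon difference -0.58 ± 0.45 and the paired difference -2.95 ± 0.91. Ptpa, an activator of protein phosphatase 2A, had intron levels of 0, 5.63 and 277.01 CPM in SN clones and 2.71, 69.5 and 1105 CPM in N clones. Its exon levels were 0, 94.1 and 533 CPM in SN clones and 0, 131.2 and 285.5 CPM in N clones. Its intron difference was -1.61 ± 0.79, its exon difference 0.021 ± 0.38 and the paired difference -3.32 ± 0.99. By plate the intron difference was -3.25, -1.29 and -0.019. Vdac2, a channel of the mitochondrial outer membrane, had intron levels of 0, 4.75 and 271.6 CPM in SN clones and 1.56, 33.8 and 179.7 CPM in N clones. Its exon levels were 0, 137.97 and 431 CPM in SN clones and 0, 84.3 and 243.6 CPM in N clones, so the SN median was the lower one in introns and the higher one in exons. Its intron difference was -0.67 ± 0.71, its exon difference 0.58 ± 0.35 and the paired difference -2.81 ± 0.87. Gabarapl2, Slc3a2, Klhl24 and Ptpa overlap no other annotated gene.

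The 6 genes on the higher side had few exon counts, and for 5 of them the exon median of SN clones was 0. Ccser1, a gene with very long introns, had intron levels of 84.9, 1522 and 7488 CPM in SN clones and 173.2, 2362 and 10739 CPM in N clones and exon levels of 0, 0.161 and 152.7 CPM in SN clones and 0, 25.1 and 156.3 CPM in N clones. Exon counts of Ccser1 were present in 21 of 42 SN clones and 17 of 20 N clones. The paired difference was 3.59 ± 0.96, with -0.61 ± 0.32 in introns and -1.60 ± 0.88 in exons. Rreb1, a zinc finger transcription factor gene, had intron levels of 0, 27.6 and 1004 CPM in SN clones and 0, 13.3 and 138.1 CPM in N clones and exon counts in 15 of 42 SN clones and 16 of 20 N clones. Its paired difference, 5.13 ± 1.21 (unadjusted p = 6.87e-05), had the smallest p of the 8111 genes. Limma on the per-clone log2 difference gave 3.14 ± 0.85 for Rreb1, beside 1.80 ± 0.79 in introns and -0.62 ± 0.99 in exons. The zinc finger genes Zfp839 and Zfp943 had paired differences of 4.94 ± 1.35 and 4.65 ± 1.34, with intron differences of 0.36 and 0.23.

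The other 2 overlap genes with many exon counts. Grtp1, a gene with a Rab GAP domain, had a paired difference of 4.52 ± 1.10 in edgeR and 3.04 ± 0.88 with limma. Its intron counts matched exon counts of Lamp1, a lysosomal membrane protein gene on the opposite strand. The smaller counts summed over cells were 91.3% of the larger counts summed over cells. The 2 counts lay within 1% of each other in 40.4% of cells. 1700088E04Rik, with a paired difference of 4.31 ± 1.17 in edgeR but 1.27 ± 0.89 with limma, overlaps 2 genes. Among them is the RNA polymerase subunit gene Polr2f, with 41099 exon counts. Micall1, named above, in turn overlaps 1700088E04Rik, which has 3147 exon counts.

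**Figure D3:**
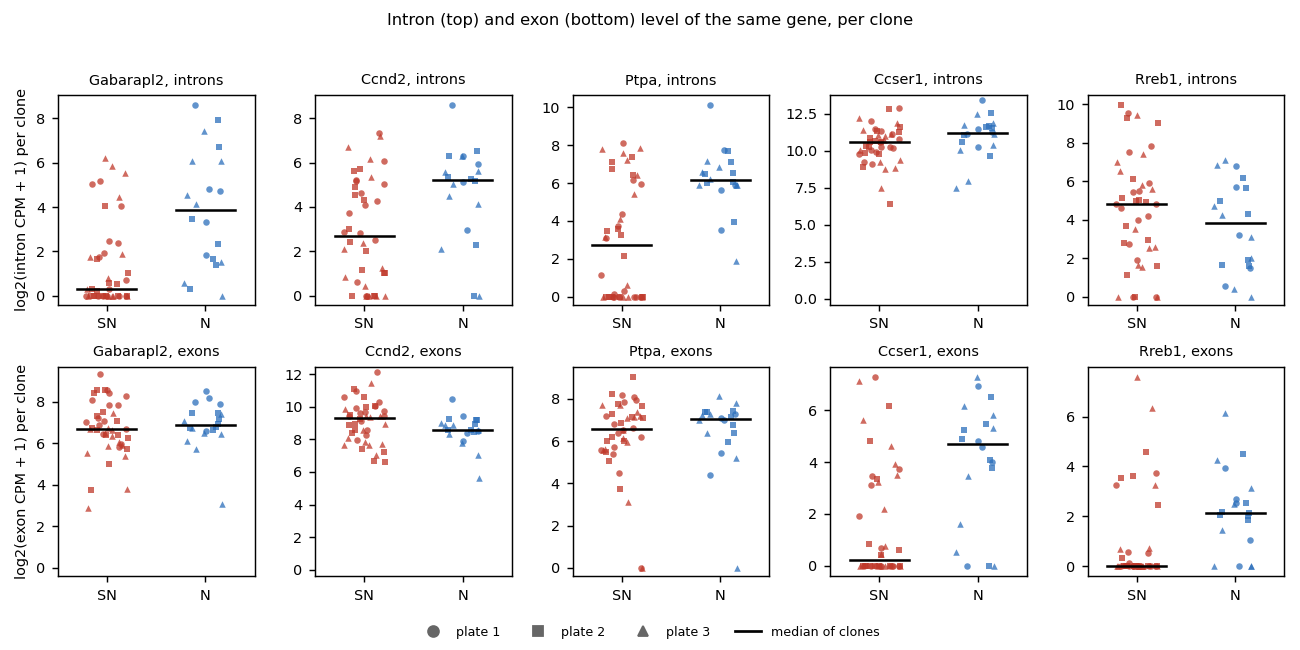
Intron level (top) and exon level (bottom) per clone as log2(CPM + 1) for 5 genes of the paired test, with SN clones left (n = 42) and N clones right (n = 20); shapes give plates and black lines medians. Ccnd2 introns have a lower median and Ccnd2 exons a higher median in SN clones, Gabarapl2 and Ptpa have lower SN medians in introns with exon medians that are closer, and Ccser1 and Rreb1 have SN exon medians at or near 0.

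Gene lists were read by their counts and medians, against the median of all genes, with no test of the list. With DESeq2 size factors the medians of all genes moved to 0.17 in introns, 0.000486 in exons and 0.049 in the paired test, and a list's value with these factors is given where its sign or its side of that median changed. In sums over clones, fewer cells of a type and less RNA per cell cannot be told apart. Of the 20 radial glia genes, the progenitor markers, 14 were tested in introns and 12 lay above 0. Their median log2 difference was 0.23 in introns, against -0.10 for all genes, and 0.40 over 19 members in exons, against -0.11 for all genes. At unadjusted p under 0.05, 1 of 14 was higher and 0 were lower in introns, against 1.55% and 4.78% of all genes. That gene was Fabp7, the brain lipid-binding protein of radial glia. Its intron levels were 0, 162.2 and 1992 CPM in SN clones and 0.344, 108.9 and 402 CPM in N clones, with 28 of 42 SN clones above the N median, and its exon levels were 12.99, 1741 and 15639 CPM in SN clones and 21.5, 1429 and 3119 CPM in N clones. The intron difference was 1.21 ± 0.48 (unadjusted p = 0.0146) and the exon difference 0.96 ± 0.36 (unadjusted p = 0.00937), and the paired difference was 0.29 ± 0.32. By plate the intron difference was 0.65, 1.54 and 1.55. Dbi, a lipid-binding protein gene of the same cells, had 0.71 ± 0.53 in introns and 0.54 ± 0.29 in exons. Gli3, a transcription factor of hedgehog signalling, had 1.04 ± 0.66 and 0.08 ± 0.79. Sox2 had no intron count in any cell, and Hes1, Hes5, Nes, Sox9 and Hopx had intron counts in at most 31 cells. They did not enter the intron test. Mfge8, a secreted bridging protein gene, had 0.99 ± 0.73 in introns. Pax6, also on the radial glia list, had a value below 0 in introns and is given with the dorsal forebrain genes.

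Proliferation and intermediate progenitor genes could hardly be read from introns. Of 21 cell cycle genes, 9 were tested and 3 lay above 0, with a median of -0.19 (5 of 9 and 0.079 with DESeq2 size factors). Of 12 intermediate progenitor genes, only Kif26b, a kinesin gene, was tested, with 0.23 ± 0.57. In the Notch pathway, which holds progenitors back from becoming neurons, 8 of 14 genes were tested, with a median of -0.28. Jag1, a ligand of Notch, had 0, 0.982 and 177.2 CPM in SN clones and 0, 1.70 and 151.7 CPM in N clones and a difference of -2.21 ± 1.06 (unadjusted p = 0.0415), but 1.70 on plate 3 alone. Numb, which encodes an inhibitor of Notch, had -0.69 ± 0.58.

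Most synapse genes had intron differences below 0. All 13 were tested, 3 lay above 0 in introns and 8 in exons. The list's median was -0.47 in introns and 0.03 in exons, and with DESeq2 size factors the intron median was -0.24 beside 0.17 for all genes. At unadjusted p under 0.05, 3 of 13 were lower in introns and 2 of 13 in exons, against 4.78% and 1.74% of all genes. The paired test had 0 of 13 in either direction and a median of -0.15, or 0.058 with DESeq2 size factors. Gria1, a subunit of AMPA glutamate receptors, had intron levels of 0, 113.2 and 2165 CPM in SN clones and 6.90, 294 and 3447 CPM in N clones and a difference of -1.31 ± 0.51 (unadjusted p = 0.0124), with -0.41 ± 0.55 in exons. By plate the intron difference was -1.15, -1.78 and -0.98. Syn1, the synapsin I gene of synaptic vesicles, had 0, 57.1 and 485 CPM in SN clones and 12.03, 138.1 and 2548 CPM in N clones and a difference of -1.40 ± 0.56 (unadjusted p = 0.0155), with 0.21 ± 0.43 in exons. By plate the intron difference was -3.28, 0.37 and -0.84, so its sign turned on plate 2. It overlaps 4 genes, among them Araf, a kinase gene with 103377 exon counts. Gria2, another AMPA receptor subunit, had -0.70 ± 0.33 in introns and -0.55 ± 0.25 in exons. Syt1, the calcium sensor of vesicle release, had -0.66 ± 0.36 in introns and 0.25 ± 0.32 in exons.

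Of 12 genes of immature excitatory neurons, 9 were tested in introns, of which 2 had values above 0 (median -0.14), and in exons all 12 had values below 0. Both counts moved with the scaling: with DESeq2 size factors 5 of 9 lay above 0 in introns (median 0.17, as for all genes) and 4 of 12 in exons (median -0.10), and with TMM scaling 4 of 12 lay above the exon median of all genes. Unc5d, a netrin receptor of migrating neurons, had intron levels of 0, 369.7 and 4603 CPM in SN clones and 13.04, 497 and 13286 CPM in N clones and a difference of -1.25 ± 0.49 (unadjusted p = 0.0136). Its highest N clone stood far above the second highest, at 5405 CPM. Nrp1, a semaphorin receptor, had -1.15 ± 0.55 in introns (unadjusted p = 0.0386) and -0.83 ± 0.39 in exons (unadjusted p = 0.0373). Mapt, the tau gene, had -0.72 ± 0.42 in introns. Stmn2, a tubulin-binding protein gene, had -0.41 ± 0.36 in introns. Sox4, Sox11 and Tubb3 had no intron count, although their exon levels were high. Sox4 and Sox11 have no introns, whereas Tubb3 lies within Gm20388 on the same strand. Gm20388 had 3550243 intron counts and 0 exon counts, and how reads at shared positions were counted is not given.

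Layer genes lay on both sides of 0. The intron difference was above 0 for 5 of 8 deep layer genes tested (median 0.15) and for 4 of 7 upper layer genes (median 0.13). Bcl11b, a transcription factor of subcerebral neurons, had intron levels of 0, 66.6 and 741 CPM in SN clones and 1.47, 84.4 and 6329 CPM in N clones and a difference of -1.51 ± 0.62 (unadjusted p = 0.0174), with -0.16 ± 0.36 in exons. Its highest N clone, at 6329 CPM, stood above a second highest of 870 CPM, and without it the N mean was 162.1 CPM, against 470 CPM with it. Fezf2, another factor of subcerebral neurons, had -0.99 ± 0.74, Foxp2, a forkhead transcription factor gene, had 0.83 ± 0.59 and Ldb2, a LIM domain cofactor gene, had 0.64 ± 0.63. The highest SN clone of Foxp2 and Ldb2 was the same one, clone 64, at 3513 and 5575 CPM. Lmo4, a LIM-only protein gene, had -0.51 ± 0.67.

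Long neuronal genes, several of them among the leading genes of the table, lay on both sides of 0 too. Of 30 genes 29 were tested, 15 lay above 0, and the median was 0.0019. In the paired test 20 of 28 lay above 0, with a median of 0.38, beside -0.12 for all genes. Auts2 had intron levels of 345, 2924 and 14026 CPM in SN clones and 920.2, 4892 and 16559 CPM in N clones and differences of -0.65 ± 0.30 in introns and -0.56 ± 0.30 in exons. Nav3, a neuron navigator gene, had 50.9, 850.5 and 4032 CPM in SN clones and 193.04, 1672 and 6288 CPM in N clones and -0.83 ± 0.37 in introns. Nrxn3, a presynaptic adhesion gene, had 14.2, 502 and 64806 CPM in SN clones and 19.1, 508 and 2903 CPM in N clones, a median alike in both types and 1 SN clone far above the rest, with a difference of 1.24 ± 0.61. Opcml, an adhesion protein gene, had -0.66 ± 0.35. Tenm2, Ptprd and Dcc had -0.29 ± 0.34, 0.0019 ± 0.32 and -0.55 ± 0.34. Celf2, from the list of neural RNA-binding proteins, had 137.6, 2734 and 11310 CPM in SN clones and 1256, 4482 and 19482 CPM in N clones and -0.65 ± 0.28 (unadjusted p = 0.0238). Elavl2, of the same list, had -0.995 ± 0.53, and the list's 18 tested members had a median of -0.18, with 8 above 0. With DESeq2 size factors that median was 0.199, with 10 above 0.

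Genes known to hold back introns in the nucleus, such as those of splicing factors and Clk kinases, lay on both sides of 0 in introns. All 15 were tested, 8 lay above 0 in introns and 3 in exons, and the medians were 0.03 and -0.21. In the paired test 1 of 15 had an unadjusted p under 0.05, on the lower side, against 2.27% of all genes. With DESeq2 size factors 9 lay above 0 in introns, and their median of 0.077 was below that of all genes. Ddx5, an RNA helicase gene, had -0.70 ± 0.41 in introns and -0.30 ± 0.16 in exons. Srsf5, a splicing factor gene, had 1.28 ± 0.84 and -0.28 ± 0.26. Among ribosomal protein genes 15 of 20 were tested, with an intron median of -0.26 and an exon median of -0.06, or 0.137 and 0.063 with DESeq2 size factors. Rpl5 had 0, 5.97 and 74.3 CPM in SN clones and 1.01, 12.6 and 582 CPM in N clones in introns and a difference of -1.94 ± 0.63 (unadjusted p = 0.00299), with -0.16 ± 0.19 in exons. It overlaps 4 genes, and without strand reads at shared positions cannot be told apart. Rpl37 had -0.93 ± 0.55. Emx1 itself, the Cre locus, had 0, 0 and 217.002 CPM in SN clones and 0, 2.06 and 131.3 CPM in N clones and a difference of 0.42 ± 0.93.

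Regulators of timing and regional identity gave no unadjusted p under 0.05 in introns, and the side of the all-gene median on which their medians lay depended on the scaling. Of 6 tested NFI and late progenitor factors 2 lay above 0 (median -0.15), or 4 with DESeq2 size factors (median 0.23). Zbtb20, a zinc finger repressor, had -0.77 ± 0.44 in introns and -0.93 ± 0.35 in exons (unadjusted p = 0.00885), while Nfib had -0.62 ± 0.36 in introns. Of 5 tested early timing factors 2 lay above 0 (median -0.34), with Igf2bp1 and Igf2bp3, RNA-binding proteins of early progenitors, at -0.92 ± 0.74 and -0.34 ± 0.46. Of 8 tested dorsal forebrain genes 3 lay above 0 (median -0.11), or 6 with DESeq2 size factors (median 0.1995), with Pax6 at -0.76 ± 1.01. The early timing median was below that of all genes with both scalings, at -0.052 with DESeq2 size factors. Immediate early genes, which mark recent stimulation, had 4 tested members and a median of 0.26. Of these, Dusp1 had 0.29 ± 0.42 and Junb 0.26 ± 0.83. Both overlap genes with many exon counts, Ergic1 with 45280 and Prdx2 with 571298. Among nuclear noncoding RNAs Meg3 had 0.23 ± 0.50 and Rian 0.26 ± 0.65, and 3 of 8 were tested, with a median of 0.23.

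Markers of other cell types were read as summed levels of each list. For the 9 GABAergic neuron genes the summed intron levels were 6.60 CPM at the median of SN clones and 17.8 CPM at that of N clones, and for the 8 mesenchyme genes 10.7 and 19.1 CPM. The 6 oligodendrocyte lineage genes had medians of 2.37 and 11.4 CPM, and the 6 astrocyte genes 70.1 and 138.5 CPM. Single clones stood out: the GABAergic sums ran up to 2140 CPM among SN clones and 301.7 CPM among N clones, the oligodendrocyte sums to 492 and 219.2 CPM, the astrocyte sums to 368 and 688 CPM and the mesenchyme sums to 262.2 and 1086 CPM. The lowest sum was 0 in SN clones for these 4 lists, and in N clones 0 for 3 and 0.687 CPM for the oligodendrocyte list. The list of endothelium and microglia had 226.3 and 298.7 CPM in introns but 7.89 and 10.3 CPM in exons, and its intron sums ran from 32.9 to 2764 CPM in SN clones and from 86.9 to 1147 CPM in N clones. Cx3cr1, a microglial receptor gene that overlaps 9 genes, had intron medians of 126.2 and 199.6 CPM, with intron counts in 74.9% of kept cells and exon counts in 8.10%. Csf1r, another microglial receptor gene, had -0.64 ± 0.86 and Cx3cr1 -0.29 ± 0.38.

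Dlx1 and Dlx6 of the GABAergic list, Olig1, Msx1 and Cldn5 had 0 intron counts in all kept cells, and all markers of these lists had some exon count. Few could be tested in introns, 3 of 9 GABAergic genes and 1 of 8 mesenchyme genes among them, and no tested marker had an unadjusted p under 0.05 there. In exons 3 of 6 tested mesenchyme genes were lower in SN clones at unadjusted p under 0.05, with 1 of 5 astrocyte and 1 of 4 choroid plexus genes, against 1.74% of all genes. The mesenchyme genes had an exon median of -1.87, and their summed exon levels had medians of 17.3 CPM in SN clones and 78.1 CPM in N clones. The GABAergic genes Gad2 and Sp9 had 1.75 ± 1.09 and -0.99 ± 0.93, and Pdgfra of the oligodendrocyte lineage had 0.54 ± 0.92. The astrocyte genes Slc1a2 and Gja1 had -1.10 ± 0.67 and -1.34 ± 0.98. For choroid plexus and hem, whose summed medians were 29.1 and 36.1 CPM, Ttr had -1.70 ± 1.11 and Lmx1a 0.45 ± 0.83, and for mesenchyme Dcn had -1.82 ± 0.94. In Cajal-Retzius neurons, an early cortical type with summed medians of 292 and 308 CPM, Lhx5 had 0.84 ± 0.80 and Ebf2 -0.77 ± 0.82. Lhx5 was the member of these lists with an unadjusted p under 0.05 in the paired test, at 4.43 ± 1.37 (unadjusted p = 0.00190). The part of such cells in the differences above was not tested.

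**Figure D4:**
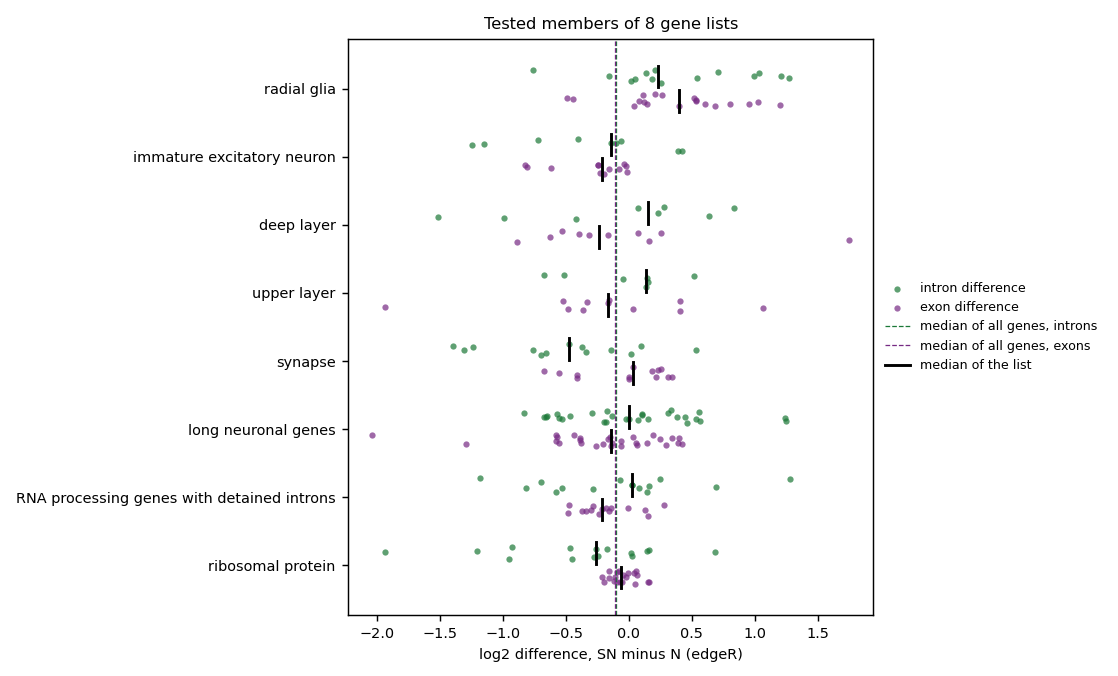
Log2 difference, SN minus N, of each tested member of 8 gene lists in introns (green, upper row of each list) and in exons (purple, lower row), with the list's median as a black bar and the medians of all genes as dashed lines, which coincide near -0.10 and -0.11. Radial glia members lie mostly to the right in both kinds, and synapse members lie to the left in introns, with a median of -0.47, and around 0 in exons.

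SN clones had intron counts in fewer genes than N clones, at equal depth. At a fixed 25000 intron counts, an SN clone had intron counts in 4312 ± 982 genes and an N clone in 5227 ± 1091 (SD, n = 42 and n = 20), a difference of -915 (two-sided permutation test, p = 0.00143, adjusted p = 0.00286 over 4 measures). The difference was -732, -1315 and -663 genes on plates 1, 2 and 3. Of its intron counts, an SN clone had 27.5 ± 13.5% in genes with no exon count in the clone, and an N clone 16.6 ± 6.92% (permutation p = 0.00129, adjusted p = 0.00286). By plate the difference was 11.2, 14.7 and 5.09 percentage points. That share was not taken at equal depth. With intron and exon counts both thinned to 25000 per clone it was 54.1 ± 11.7% in SN clones and 47.7 ± 9.82% in N clones. The difference was then 6.32 points, which missed the threshold once adjusted (permutation p = 0.0409, adjusted p = 0.0818). By plate it was 7.31, 8.45 and 1.29 points. Both differences were smaller when cells were not summed or were limited in number. With the mean over the cells of a clone in place of the sum, the differences were -204 genes (permutation p = 0.359) and 2.56 points (p = 0.467). With the first 2 kept cells of every clone they were -128 genes (p = 0.708) and 6.55 points (p = 0.160).

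The intron share of all counts was 29.4 ± 10.7% in SN clones and 33.1 ± 11.1% in N clones (permutation p = 0.210, adjusted p = 0.210). Long neuronal genes held 4.93 ± 1.95% of intron counts in SN clones and 5.74 ± 2.35% in N clones (permutation p = 0.159, adjusted p = 0.210). Neither difference passed the test.

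**Figure D5:**
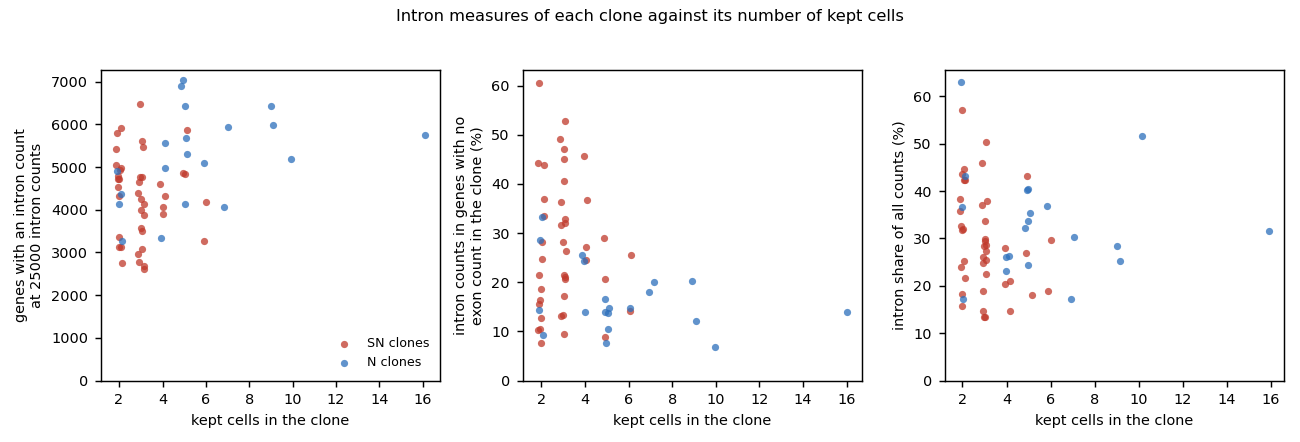
Genes with an intron count at 25000 intron counts (left), share of intron counts in genes with no exon count in the clone (middle, %) and intron share of all counts (right, %) against the number of kept cells of each clone, with SN clones in red (n = 42) and N clones in blue (n = 20); points are shifted slightly sideways. N clones extend to 16 cells and SN clones to 6, and among clones of 2 to 6 cells the types overlap in all 3 measures.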

How the data were processed

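The authors deposited reads as whole-number counts per gene for every cell, once for exons and once for introns. Per the submitters' processing notes, these deposited counts rest on the genome build GRCm39, the aligner STAR 2.7.9a and R 4.4.0. The counting tool, the annotation, the use of strand and of molecular identifiers are not given in the sources used here, so counts are read as reads. Gene symbols were matched by ID for 52083 of 55359 IDs, which hold 99.9% of intron counts. Overlaps between genes were taken by gene ID from GENCODE M21, an annotation of the older build GRCm38, and no coordinates are given. The highest correlation of intron profiles between any pair of cells was 0.787, and all cells were kept as separate libraries.

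Sums per clone were tested in edgeR 4.0.16 with the quasi-likelihood F test, TMM scaling, filterByExpr, a term for plate and Benjamini-Hochberg adjustment at 0.05. Clone 45 has 3 cells on plate 2 and 10 on plate 3 by its labels and was counted on plate 3. A standard error is the absolute log2 value divided by the square root of F. The paired test fitted the intron and exon sums of a clone as a pair, with the clone as block and plate within each kind, and its dispersion trend was read from 1 in 8 genes. Clone measures were compared by permutation tests, two-sided, with 100000 resamples. The tests were tried on simulated data.

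Named genes were the 6 of smallest p per direction in the intron test and in the paired test with an intron count in at least 10 kept cells, the leading members of each of 25 gene lists, Emx1 and the 10 genes with most intron counts. The members, the gene lists and the tests were chosen with earlier results of these data known. Alternatives covered the scaling, filters, tool, plate, cell and clone filters, the weight of cells and single large clones. Those on overlapping genes, thinning of counts, shallow clones and the first 2 cells of each clone were chosen after seeing the data. Left out of all comparisons were 3 cells that the labels put in no clone. Results for 2 genes are not reported here.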

Additional observations from a re-analysis of the deposited data

Results flagged for a closer look

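The labels put 3 cells in no clone, so they entered no comparison, but their intron counts were well above 0. They had 666594, 6111044 and 2695 intron counts, which were 28.3%, 50.6% and 54.4% of all their counts. The first 2 had intron counts in 6325 and 13711 genes, within the range of the kept cells, and the last in 430 genes.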

How the results depend on the processing

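The counts of genes past an adjusted p of 0.05 depended on the tool, the filter and the cells used, and the cause was not tested. In introns, where edgeR called 0 of 11050, the DESeq2 Wald test called 61 (0.552%, 28 higher and 33 lower in SN clones), limma-voom 24 (0.217%) and edgeR with no filter on low counts 2371 of 26262 (9.03%, 577 higher and 1794 lower). Cells of at least 2000 genes gave 1 (0.00922%), clones of labelled size 4 to 6 gave 2 (0.0224%), clones of 1 kept cell added gave 2 (0.0193%), equal weight per cell gave 2 (0.0222%) and scaling by exon totals gave 2 (0.0181%). Among alternatives chosen after seeing the data, genes that overlap no other gene gave 9 of 4005 (0.225%) and the first 2 cells of each clone gave 8 of 8330 (0.096%), all lower. In exons, where edgeR called 0 of 11914, the DESeq2 Wald test called 2 (0.0168%), cells of at least 2000 genes gave 2 (0.0169%), genes that overlap no other gene gave 1 (0.0201%), limma-voom called 1.45% and no filter gave 6861 of 39336 (17.4%). The other alternatives gave 0 in introns and exons, those within 1 plate and those without clone 16 or clone 45 included, and the paired test gave 0 in every alternative run. In introns Gabarapl2 passed the threshold on the lower side in 6 of its 17 alternatives.
The 2 clone measures that passed the permutation test did not with the mean over cells (-204 genes, p = 0.359, and 2.56 percentage points, p = 0.467) or with the first 2 cells of each clone (-128 genes, p = 0.708, and 6.55 points, p = 0.160). With intron and exon counts both thinned to 25000 per clone, chosen after seeing the data, the share in genes with no exon count gave 6.32 points (p = 0.0409, adjusted p = 0.0818). Cells of at least 2000 genes and leaving out clone 16 or clone 45 kept both past it.
No paired analysis was possible because the replicate numbers only count cells, and no label pairs an SN clone with an N clone.
Of the log2 values of named genes, 59 kept their sign in all alternatives and 49 did not. Those that changed sign, none of them past the threshold there, follow by setting. On plate 1 alone these were, in the intron values, 1700088E04Rik (0.078), Foxp2 (-0.48), Ldb2 (-0.75), Lmo4 (0.53), Dusp1 (-0.030), Junb (-0.44), Meg3 (-0.33), Rian (-0.014) and Ebf2 (0.072). Pdgfra (-1.59), Ttr (1.35), Csf1r (1.74), Emx1 (-0.40) and Ptprd (-0.15) followed in the intron values of that setting. 1700088E04Rik (1.92), Zfp839 (0.22) and Klhl24 (0.26) followed in the exon values of that setting. On plate 2 alone these were, in the intron values, Zfp943 (-0.87), Kif26b (-0.070), Stmn2 (0.42), Syn1 (0.37), Igf2bp3 (0.061), Rpl37 (0.055), Ebf2 (0.46) and Lmx1a (-1.34). Gabarapl2 (0.21), Zfp943 (1.20) and Slc3a2 (0.43) followed in the exon values of that setting. On plate 3 alone these were, in the intron values, Micall1 (0.40), Grtp1 (-0.17), Zfp839 (-0.72), Syt1 (0.24), Jag1 (1.70), Numb (1.16), Nfib (0.27), Cx3cr1 (0.072) and Cdk8 (-0.15). Gm49450 (-0.057), Tenm2 (0.13), Ptprd (-0.023) and Dcc (0.018) followed in the intron values of that setting. Rreb1 (0.76), Slc3a2 (0.14) and Ptpa (-0.36) followed in the exon values of that setting. With limma-voom these were, in the intron values, Zfp839 (-0.081), Zfp943 (-1.10), Gli3 (-0.54), Kif26b (-0.63), Foxp2 (-0.17), Ldb2 (-0.056), Mki67 (-0.29), Junb (-0.55) and Srsf5 (-0.75). Gad2 (-0.44), Emx1 (-0.46) and Gm49450 (-0.083) followed in the intron values of that setting. Ptpa (-0.19) followed in the exon values of that setting. With equal weight per cell these were, in the intron values, Ccser1 (0.15), 1700088E04Rik (0.69), Zfp839 (-0.11), Stmn2 (0.34), Foxp2 (-0.58), Syt1 (0.072), Numb (0.26), Nfib (0.21) and Igf2bp3 (0.014). Rian (-0.28), Pdgfra (-0.25), Tenm2 (0.056) and Dcc (0.11) followed in the intron values of that setting. In clones of labelled size 4 to 6 these were, in the intron values, 1700088E04Rik (0.30), Zfp839 (-0.26), Kif26b (-0.29), Unc5d (0.070), Stmn2 (0.29), Foxp2 (-0.34), Zbtb20 (0.052), Junb (-0.070) and Cx3cr1 (0.28). Emx1 (-0.051) and Ptprd (-0.45) followed in the intron values of that setting. Ptpa (-0.17) followed in the exon values of that setting. With the first 2 cells of each clone these were, in the intron values, Zfp839 (-0.57), Foxp2 (-0.54), Ldb2 (-0.70), Srsf5 (-0.15), Rian (-0.58), Pdgfra (-0.27), Cx3cr1 (0.012), Gm20388 (-0.078) and Gm49450 (-0.069). Ptprd (-0.31) followed in the intron values of that setting. Gabarapl2 (0.029) followed in the exon values of that setting. Scaled by exon totals these were, in the intron values, Grtp1 (-0.064), Zfp943 (-0.21), Dusp1 (-0.15), Emx1 (-0.040), Gm20388 (-0.050), Gm49450 (-0.17) and Ptprd (-0.060). With the DESeq2 Wald test these were, in the intron values, 1700088E04Rik (0.23), Gad2 (-0.27), Lmx1a (-0.13) and Cx3cr1 (0.043). Gabarapl2 (0.032) and Slc3a2 (0.077) followed in the exon values of that setting. With clones of 1 kept cell added these were, in the intron values, Zfp943 (-1.64), Ldb2 (-0.65) and Dusp1 (-0.33). Gabarapl2 (0.0076) and Slc3a2 (0.015) followed in the exon values of that setting. With DESeq2 size factors in edgeR these were, in the intron values, 1700088E04Rik (0.23) and Cx3cr1 (0.041). Gabarapl2 (0.031) and Slc3a2 (0.076) followed in the exon values of that setting. Without the plate term these were, in the intron values, Cdk8 (-0.24) and Ptprd (-0.029). Gabarapl2 (0.060) followed in the exon values of that setting. With no filter on low counts these were, in the intron values, Gm49450 (-0.018) and Ptprd (-0.060). Ptpa (-0.048) followed in the exon values of that setting. Thinned to 500000 counts per clone these were, in the intron values, 1700088E04Rik (0.13) and Lmo4 (0.069). Ptpa (-0.033) followed in the exon values of that setting. With cells of at least 2000 genes these were, in the intron values, Ptprd (-0.060). Ptpa (-0.0028) followed in the exon values of that setting. With a filter of 10 counts in enough clones these were, in the intron values, 1700088E04Rik (0.075). Without clones under 500000 intron counts these were, in the exon values, Ptpa (-0.043). Without clone 45 these were, in the intron values, Ptprd (-0.047).
Of the intron values above 0 in single cells, 37.5% are 1 to 3 counts, and the part of depth in the results of low genes was not tested. Whether the counts tell molecules apart is not given, so they are read as reads.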
